A study of Homo sapiens with 16 samples.

Results

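The genes for collagen crosslinking and hydroxylation enzymes were followed through the H3K27ac regions that changed when O-GlcNAc transferase (OGT) was inhibited in hepatic stellate cells (HSCs). They were LOX, LOXL1, LOXL2, LOXL3, LOXL4, PLOD1, PLOD2, P4HA1, P4HA2 and P4HA3, chosen by name as 10 of the 19970 protein-coding genes annotated on chromosomes 1 to 22 and X. A listed region was given to a gene when any of its bases lay in the gene body or within 100 kb of the 5′ end of the gene. By this rule 23 regions of the 7130 listed in all lay at these genes. Of these, 18 had lost H3K27ac (of 3507 lost regions) and 5 had gained it (of 3623 gained regions).

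H3K27ac, a histone acetylation found at active promoters and enhancers, had been profiled by ChIP-seq (sequencing of immunoprecipitated chromatin) in LX-2, an established human HSC line of myofibroblastic phenotype and the single line used here. Control cells received DMSO as vehicle, and treated cells received OSMI-1, a small-molecule inhibitor of OGT (OGTi), at 50 µM for 24 h. Each arm had 4 H3K27ac libraries, described as biological replicates. Another 8 of the 16 samples were input DNA and column purified chromatin, and they enter no result here. The comparison of the 8 H3K27ac libraries was deposited as 1 list of lost and 1 list of gained regions, whose names give an adjusted p of 0.15 as the threshold. The lists hold positions in the hg38 genome build alone. The size of a change, its spread between replicates and the read depth behind it are therefore unknown, no test over cultures could be made, and unchanged regions are not analysed here. The identity of the cells could not be checked against marker genes either, since a marker without a changed region is absent from both lists.

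Collagen chains are modified inside the cell and joined to each other outside it. Prolyl 4-hydroxylases, whose catalytic alpha subunits are encoded by P4HA1, P4HA2 and P4HA3, hydroxylate prolines and so stabilise the triple helix, and the lysyl hydroxylases encoded by PLOD1 and PLOD2 hydroxylate lysines that later take part in crosslinks. The copper-dependent lysyl oxidases LOX and LOXL1 to LOXL4 then oxidise lysines of secreted collagen and elastin, upon which neighbouring molecules bond and the fibres stiffen. In the fibrotic liver activated HSCs are a main source of collagen, and crosslinked scar is stiffer and resists degradation.

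By number of regions, loss of H3K27ac was found mainly at the lysyl oxidase-like genes LOXL1 and LOXL2, which held 7 and 4 of the 18 lost regions. Wide peaks had been divided into bins, so these numbers also depend on peak width. The start site of LOXL4 was covered by a lost region as well, and another lost region began 37 bp downstream of the canonical start of P4HA2. A lost region was found at 6 of 10 genes (LOXL1, LOXL2, LOXL4, PLOD1, P4HA2 and P4HA3), against 21.6% of all protein-coding genes by the same rule. A gained region was found at 4 of 10 (LOX, LOXL1, LOXL2 and LOXL3), against 30.6% of all. LOXL1 and LOXL2 had both kinds, as did 7.23% of all genes, and PLOD2 and P4HA1 had neither, as did 55.0%. Among the 10 genes, all 4 with a gained region were lysyl oxidases, whereas the hydroxylases had lost regions alone or none. This split did not extend to hydroxylase genes outside the 10. PLOD3, a further lysyl hydroxylase, had 2 gained and no lost regions, and P4HB, the partner subunit of the P4HA chains, had 1 of each. Among the 10, the split also depended on the window and on the 5′ ends used. Within 200 kb, a window for which the share of all genes was not computed, PLOD1, P4HA1 and P4HA2 had a gained region as well. With the 5′ ends of all transcripts, P4HA2 had one within 100 kb. These shares are descriptions without a test, since genes that lie near each other share regions and the 10 genes were taken up with results of these data known.

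The rule searched at most 229 kb around any of the 10 genes. Of the 23 regions, 14 lay in the body of the gene, 12 of them lost and 2 gained. The nearest protein-coding 5′ end was that of the enzyme gene for 9 of 18 lost and 3 of 5 gained ones. By canonical starts, a choice made after seeing the data, it was so for 11 lost and 3 gained regions, with P4HA2 among the genes. Each region lay in reach of 0 to 18 other protein-coding genes (median 3), and which gene a region acts on was not tested. Joined across gaps of up to 1000 bp, they formed 13 lost and 5 gained blocks, since wide peaks had been divided into abutting bins.

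**Figure D1:**
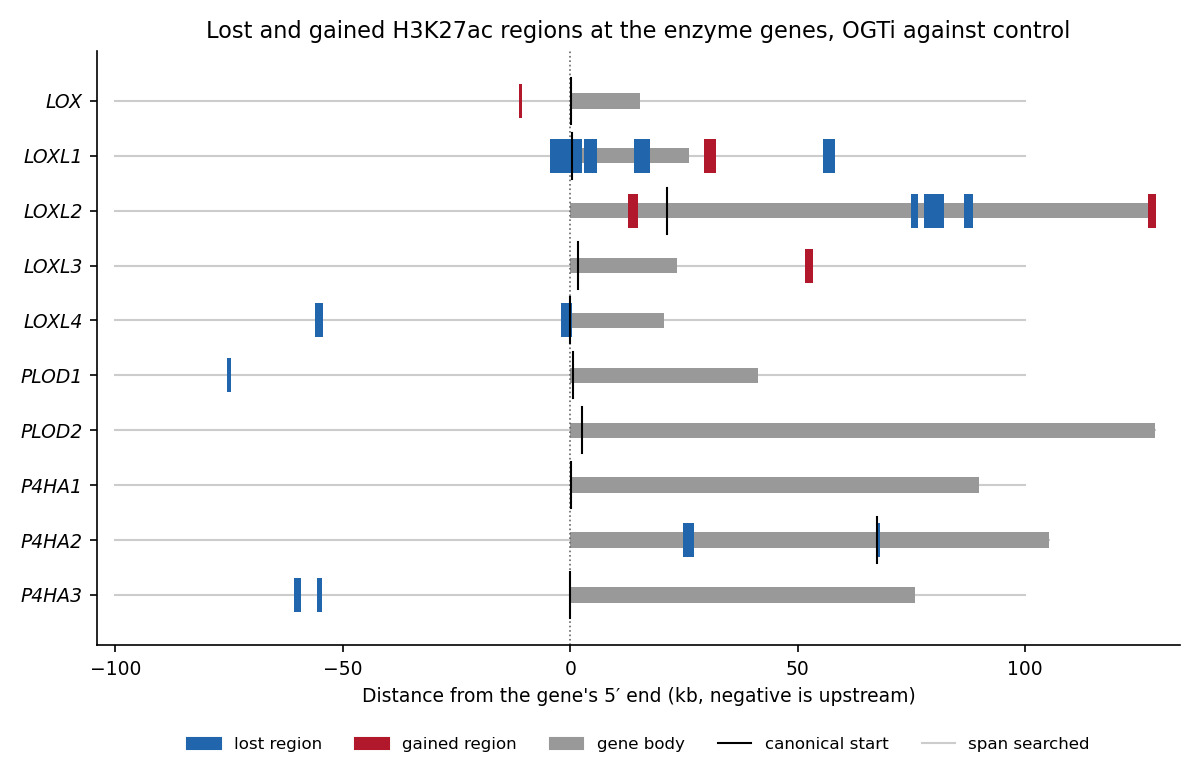
Each row is a gene drawn 5′ to 3′ from left to right, with distance from its 5′ end in kb on the x axis, the gene body as a grey bar, the canonical start as a black line, and lost (blue) and gained (red) regions to scale. Lost regions cluster over LOXL1 and in the body of LOXL2, and PLOD2 and P4HA1 have no region of either kind.

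LOX, the founding lysyl oxidase, lies at chr5:122063195-122078413 on the minus strand. It had no lost region and 1 gained region, chr5:122088974-122089783, of 810 bp. This region lay in intergenic sequence 10.6 kb upstream of the 5′ end of LOX, which was also the nearest protein-coding 5′ end. It was AT-rich, with a GC content of 34.9% against a median of 46.1% over all gained regions. Its central 250 bases are shown as the sequence of the gained region nearest to LOX (chr5:122089254-122089503, minus strand, hg38), with CpG dinucleotides in capitals, of which there were 0.
LOX gained region, centre: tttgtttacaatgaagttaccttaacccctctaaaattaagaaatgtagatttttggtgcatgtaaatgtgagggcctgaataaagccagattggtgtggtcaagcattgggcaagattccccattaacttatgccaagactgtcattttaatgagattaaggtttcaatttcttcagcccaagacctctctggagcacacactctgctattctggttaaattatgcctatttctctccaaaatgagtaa

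LOXL1, a lysyl oxidase that acts on elastin and collagen, lies at chr15:73925989-73952137 on the plus strand and held the most lost regions of the 10 genes, 7 with a summed width of 15.8 kb. In all, 60 protein-coding genes (0.300%) had at least as many lost regions, neighbours that share regions included. This share counts the bins of divided peaks, and a share by merged blocks was not computed. Lost regions chained over its promoter, since 4 of them merged into 1 block of 10.2 kb, chr15:73921591-73931811, from upstream of the 5′ end into intron 1. In this block 3 regions abut, chr15:73921591-73924290, chr15:73924291-73926290 over the 5′ end and chr15:73926291-73928548 over exon 1, and chr15:73929096-73931811 follows in intron 1. The exon 1 region had a GC content of 70.1% and a CpG observed/expected ratio of 0.690, whereas the other 6 lost regions had ratios from 0.104 to 0.183. A second lost block of 3.51 kb, chr15:73940103-73943615, ran from intron 1 over exon 2. The seventh region, chr15:73981528-73984171, lay 55.5 kb from the 5′ end in exon 7 of STOML1, whose 5′ end was nearer (10.5 kb).

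LOXL1 also had 1 gained region, chr15:73955441-73957963, which lay 3′ of the gene and 29.5 kb from its 5′ end. It lay between lost regions, 6 at the promoter and in the gene body and the seventh, in STOML1, farther downstream. The antisense gene LOXL1-AS1 starts in the same interval, and the centres of the 3 abutting lost regions lay in its intron 1, so that the promoter regions cannot be given to LOXL1 alone. The 250 bases upstream of the LOXL1 5′ end are shown because all of them lay in a lost region (chr15:73925739-73925988, plus strand, hg38). CpG dinucleotides are in capitals, of which there were 4, and the GC content was 53.6%.
LOXL1 upstream: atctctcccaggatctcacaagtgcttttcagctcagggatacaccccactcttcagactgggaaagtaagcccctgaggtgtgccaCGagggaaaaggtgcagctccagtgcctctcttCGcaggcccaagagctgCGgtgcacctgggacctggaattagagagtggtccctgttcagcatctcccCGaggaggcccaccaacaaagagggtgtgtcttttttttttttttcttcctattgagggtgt

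**Figure D2:**
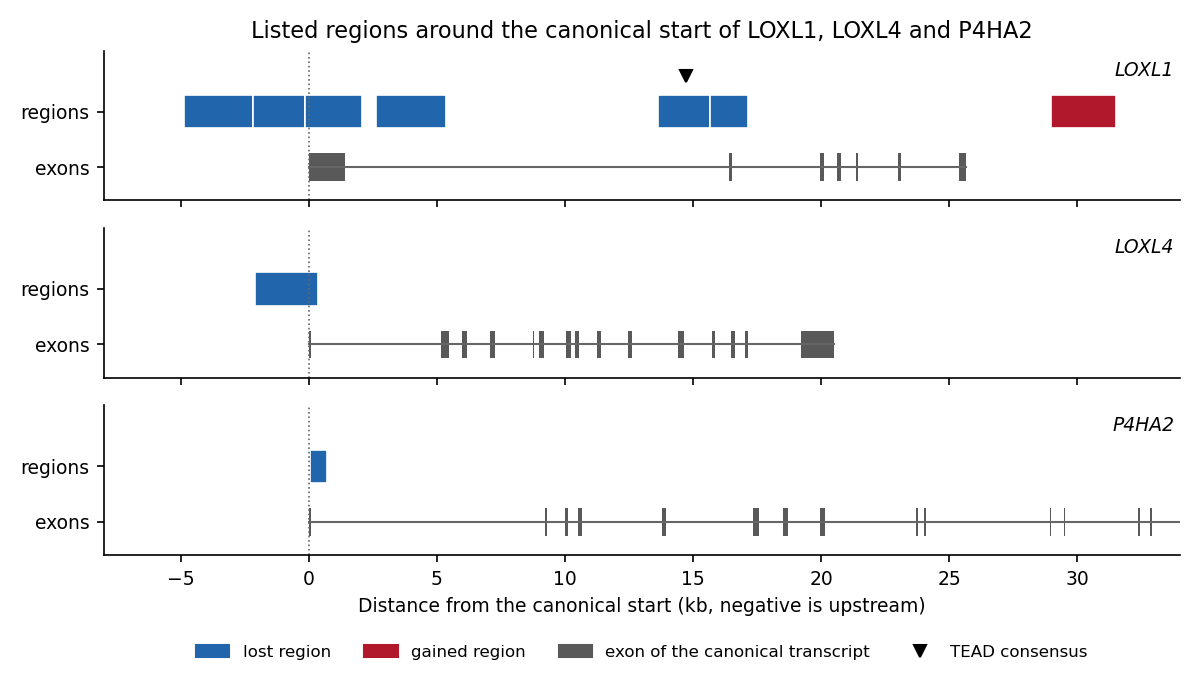
Listed regions (upper track of each panel) and exons of the canonical transcript (lower track) by distance from the canonical start in kb, for LOXL1, LOXL4 and P4HA2, with a triangle at a match to the TEAD consensus and regions farther away left out. Lost regions (blue) lie at all 3 starts, LOXL1 has 3 within 2500 bp of its start and 3 farther downstream, and its gained region (red) lies beyond the last exon.

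LOXL2, a lysyl oxidase linked to collagen crosslinking in fibrotic liver, lies at chr8:23296897-23425328 on the minus strand. It had 4 lost regions (7.91 kb) and 2 gained regions (3.92 kb). At least 4 lost regions, again counted as bins, were found at 398 protein-coding genes (1.99%). The lost regions lay far from the annotated promoter, chr8:23336816-23338815 in intron 4 and chr8:23343155-23345154, chr8:23345155-23347611 and chr8:23348934-23350390 in intron 3, between 53.7 and 65.3 kb downstream of the canonical start. All 4 also had their centres in the antisense gene LOXL2-AS1, and 2 of them lay within 2500 bp of the start of a shorter LOXL2 transcript (at 23341176, distances of 1979 and 2361 bp on either side). By gene 5′ ends, the nearest protein-coding gene was R3HCC1 for 3 of these, at 66.7 kb or more, and by canonical starts it was R3HCC1 for 2 and LOXL2 for 2.

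The gained regions of LOXL2 lay at both ends of the gene. One, chr8:23410494-23412642, lay 6.37 kb upstream of the canonical start and 12.7 kb downstream of the 5′ end of the longest transcript, in a stretch shared with ENTPD4. The other, chr8:23296462-23298227, covered the last exon (exon 14). Loss inside the gene was thus flanked by gain on both sides, as the map of regions by gene shows. Widths were alike, 1457 to 2457 bp for the lost and 1766 and 2149 bp for the gained regions.

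LOXL3, a lysyl oxidase of chr2:74532258-74555690 on the minus strand, had no lost region. Its single gained region, chr2:74502278-74504128, lay 51.6 kb from its 5′ end and outside the gene, over the 5′ end of the homeobox gene LBX2. It was in reach of 18 other protein-coding genes, the most of the 23 regions, and of the 5 gained regions it is the one least attached to the enzyme gene by position.

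LOXL4, a lysyl oxidase of chr10:98247690-98268194 on the minus strand, had 2 lost and no gained regions. The region chr10:98267859-98270280 (2422 bp) covered its start site and was CpG-rich, with a GC content of 62.6% and a CpG observed/expected ratio of 0.451. No other protein-coding gene was in reach of it. The other, chr10:98322555-98324245, lay 54.4 kb upstream in intergenic sequence, with the LOXL4 5′ end as the nearest. All of the 250 bases upstream of the start (chr10:98268195-98268444, minus strand, hg38) lay in the lost region, and they are shown beside those of LOXL1 for their different composition, with 37 CpG dinucleotides (capitals) and a GC content of 86.4%.
LOXL4 upstream: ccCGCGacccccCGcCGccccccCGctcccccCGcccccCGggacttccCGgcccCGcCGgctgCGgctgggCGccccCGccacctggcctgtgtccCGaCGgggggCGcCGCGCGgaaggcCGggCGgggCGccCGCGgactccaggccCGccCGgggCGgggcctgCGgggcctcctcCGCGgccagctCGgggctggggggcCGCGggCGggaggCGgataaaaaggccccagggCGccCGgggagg

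The lysyl hydroxylase genes PLOD1 and PLOD2 had 1 and 0 listed regions in reach, where 55.0% of all protein-coding genes had neither kind. These counts do not describe the whole enzyme class, since PLOD3, a further lysyl hydroxylase, had 2 gained regions. The size of any change is unknown. PLOD1 (chr1:11934205-11975538, plus strand), which hydroxylates lysines in the collagen helix, had 1 lost region, chr1:11858679-11859643. It lay 74.6 kb upstream, covered the 5′ end of NPPB and was in reach of 6 other protein-coding genes. PLOD2 (chr3:146035139-146163725, minus strand), which hydroxylates telopeptide lysines and so directs the kind of crosslink formed, had no listed region in reach. Its nearest listed region, chr3:144053445-144056718, was lost and lay 2107 kb away, against a median of 129 kb over all protein-coding 5′ ends. Only 310 protein-coding genes (1.55%) were as far or farther from any listed region.

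The alpha subunits of prolyl 4-hydroxylase differed among themselves. P4HA1 (chr10:73007217-73096974, minus strand) had no region in reach, the nearest being the gained region chr10:73251800-73253393 at 155 kb. P4HA3 (chr11:74235801-74311640, minus strand) had 2 lost regions, chr11:74366245-74367356 and chr11:74370893-74372372, at 54.6 and 59.3 kb upstream. Both lay in introns of PGM2L1, whose 5′ end was nearer (31.1 and 26.1 kb), and they were AT-rich (GC contents of 41.0% and 31.5%).

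P4HA2 (chr5:132190147-132295315, minus strand) had 2 lost regions. The 673 bp region chr5:132227144-132227816 began 37 bp downstream of the canonical start, inside exon 1, and had its centre in intron 1. Its GC content was 67.2% and its CpG observed/expected ratio 0.751. Measured from the 5′ end of the longest annotated P4HA2 transcript, the same region is 67.5 kb away, which is why a count from gene 5′ ends leaves it out. The other, chr5:132268036-132270512, lay 40.2 kb upstream of the canonical start in intron 3 of PDLIM4, the gene with the nearest 5′ end (10.3 kb). It also lay in the annotated body of P4HA2, 24.8 kb downstream of the gene 5′ end, and was counted there. The 250 bases upstream of the cluster of P4HA2 start sites (chr5:132227858-132228107, minus strand, hg38) held 33 CpG dinucleotides, in capitals, and a GC content of 77.2%. They are shown because the lost region ends just short of them, with 0 of these bases in a listed region.
P4HA2 upstream: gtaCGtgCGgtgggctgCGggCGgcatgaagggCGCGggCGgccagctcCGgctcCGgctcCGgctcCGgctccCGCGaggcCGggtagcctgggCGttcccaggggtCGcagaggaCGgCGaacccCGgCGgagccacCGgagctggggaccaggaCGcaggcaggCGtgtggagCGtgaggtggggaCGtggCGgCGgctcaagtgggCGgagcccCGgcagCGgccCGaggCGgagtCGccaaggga

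Measured from gene 5′ ends, 4 lost regions and 0 gained regions lay within 2500 bp of a start, 3 at LOXL1 and 1 at LOXL4. Thus 2 of the 10 genes had a lost region at the 5′ end, against 1.96% of all protein-coding genes, and 0 had a gained one, against 6.41%. Measured from canonical starts the lost regions numbered 5, at LOXL1, LOXL4 and P4HA2, and 3 of 10 genes had one, against 2.00% of all. Of the 300-base RefSeq promoter windows (250 bases before to 50 after the start), those of LOXL1 and LOXL4 lay wholly in a lost region, that of P4HA2 had 198 of its bases in one, and those of LOX, LOXL3, PLOD1, PLOD2 and P4HA1 had 0 bases in a lost or a gained region. The P4HA2 window (chr5:132227042-132227341) lay wholly downstream of the canonical start at 132227853 and so does not cover that start.

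**Figure D3:**
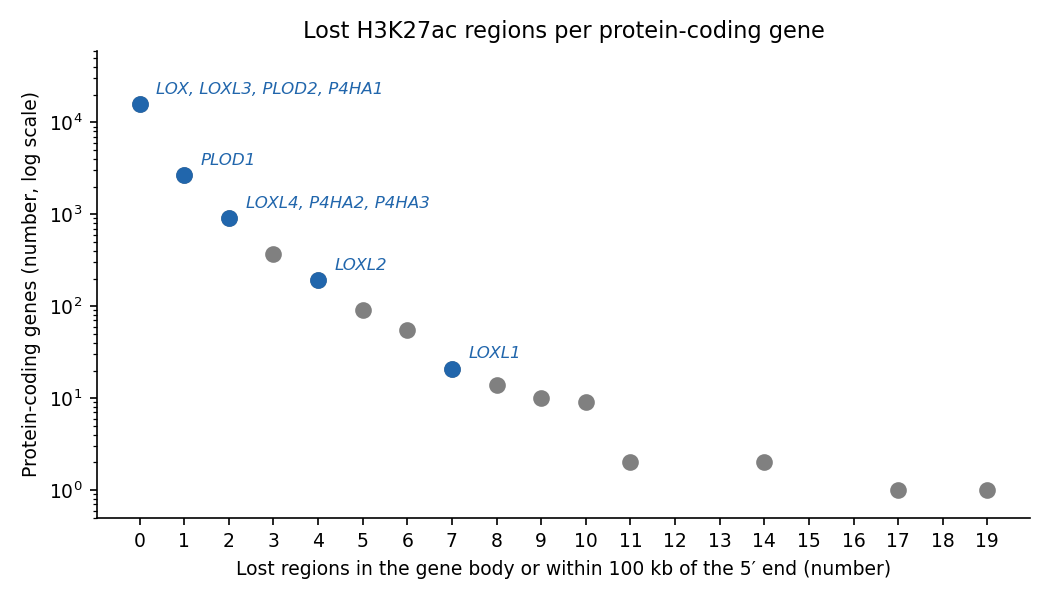
Number of protein-coding genes (y axis, log scale) by number of lost regions in the gene body or within 100 kb of the 5′ end (x axis), with the counts at which enzyme genes lie in blue. LOXL1 with 7 and LOXL2 with 4 lost regions lie in the upper tail, and LOX, LOXL3, PLOD2 and P4HA1 share the count of 0 with 15647 genes in all.

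The regions at these genes were of ordinary width. Lost regions had a median of 2000 bp (range 673 to 2716), against 1905 bp over all lost regions, and gained regions had a median of 1851 bp (range 810 to 2523), against 1697 bp. The lost regions were GC-richer, with a median GC content of 56.0% (range 31.5% to 70.1%) against 46.8% over all lost regions. The 7 lost regions of LOXL1 ranged from 55.4% to 70.1%, all above the upper quartile of 53.7% of all lost regions, and the single region of PLOD1 (64.6%) and both of P4HA2 (56.9% and 67.2%) lay above it too. The lost regions of P4HA3 lay below the lower quartile of 41.9%. CpG dinucleotides were no more frequent for that composition, since the median observed/expected ratio was 0.183, against 0.202 over all lost regions. Neighbouring regions share their base composition, so these medians rest on few independent loci.

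**Figure D4:**
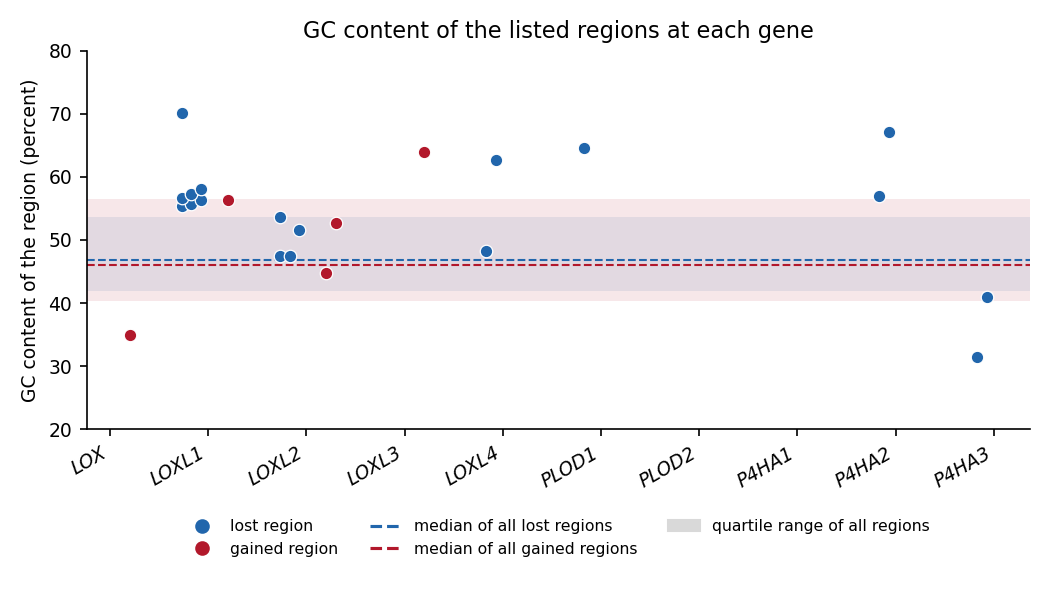
GC content in percent (y axis) of each lost (blue) and gained (red) region by gene (x axis), with dashed lines at the medians of all lost (46.8%) and all gained (46.1%) regions and shading between their quartiles. All LOXL1 and P4HA2 lost regions lie above the shading for all lost regions, and the P4HA3 lost regions lie below it.

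The TEAD consensus was searched because TEAD factors, the DNA-binding partners of YAP and TAZ, are known to act in myofibroblastic HSCs. Its words ACATTCCA, ACATTCCT, GCATTCCA and GCATTCCT were sought on both strands. A match was found in 4 of 18 lost regions (22.2%, exact Clopper-Pearson 95% interval 6.41% to 47.6%), against 42.9% of all lost regions, a share inside that interval. In the gained regions it was found in 2 of 5 (40%, interval 5.27% to 85.3%), against 27.5% of all gained regions. These intervals treat regions as independent, although regions of 1 gene adjoin, and cover counting error only. The 4 lost regions with a match were 1 each of LOXL1, LOXL2, LOXL4 and P4HA3, and the gained ones were 1 each of LOXL2 and LOXL3. No match lay in the 4 lost regions of the LOXL1 promoter block, in the lost region over the LOXL4 start or in that at the P4HA2 start.

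The matches of LOXL1, LOXL3, LOXL4 and P4HA3 are shown with 10 bases on each side because they are all the matches found at these 4 genes. Each is written on the strand on which it reads as the consensus (hg38), with the matched word in capitals.
LOXL1 lost, chr15:73941175-73941202, plus strand, 14.7 kb downstream of the canonical start: atgactgcaaACATTCCTaggggctcaa
LOXL4 lost, chr10:98323264-98323291, minus strand, 55.1 kb upstream: cacttccactGCATTCCAttggccacag
P4HA3 lost, chr11:74366727-74366754, minus strand, 55.1 kb upstream: tgcgctcactGCATTCCAgtcataccac
LOXL3 gained, chr2:74502368-74502395, plus strand: gccggcccggACATTCCActgaattctg
LOXL3 gained, chr2:74503786-74503813, plus strand: ggggggagagGCATTCCAggctggaggc
The matched words of LOXL4 and P4HA3 were the same, and all 3 of the lost matches shown lay more than 10 kb from a canonical start.

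The shorter TEAD core CATTCC, which every match above contains, was found in 14 of 18 lost regions (77.8%), close to the 73.5% of all lost regions, and at 0.868 matches per kb against 0.862. The full consensus occurred at 0.116 matches per kb (4 matches) against 0.324 over all lost regions. In the gained regions it occurred at 0.330 per kb (3 matches) against 0.207 over all gained regions. These rates were not matched for base composition, and the lost regions at the enzyme genes were GC-richer (median 56.0% against 46.8%). The AP-1 word TGANTCA, bound by FOS and JUN dimers, was found in 10 of 18 lost regions (55.6%) against 56.5% of all, and in 4 of 5 gained regions against 53.6% of all. The gained region 3′ of LOXL1 alone held 4 AP-1 words. TGTGGT, the word of RUNX factors, was found in 9 of 18 lost regions against 68.1% of all, and TTGCNNCAA, the C/EBP word, in 2 of 18 against 14.7%. TGATGCAA, a composite ATF4 and C/EBP word, was found in 1 of 18 lost regions against 4.36%, and in 1 of 5 gained regions against 10.1%. The SRF consensus, the CArG box, was found in 0 of 18 lost regions, which allows a share of up to 18.5% (upper end of the exact 95% interval), against 14.7% of all. For each of these motifs the share of the whole list lay inside the exact 95% interval of the share at the enzyme genes.

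The hypoxia response core, ACGTG or GCGTG, was searched because LOX, PLOD2 and P4HA1 are known targets of hypoxia-inducible factors. It was found in 14 of 18 lost regions (77.8%), as in 77.8% of all lost regions, and in 5 of 5 gained regions against 78.6% of all. The lost region over LOXL1 exon 1 held the most, 11. In the RefSeq promoter windows (GRCh38.p14), which matched 8 of the 10 genes, it was present at LOX (4 matches), PLOD2 (3), PLOD1 (2) and P4HA1 (1), against 56.2% of the 15316 promoters searched. It was absent from the windows of LOXL1, LOXL4 and P4HA2, those that overlap a lost region, and from that of LOXL3. The P4HA2 window does not cover the canonical start. The 250 bases upstream of the P4HA2 start cluster, outside that window and outside any listed region, held 4. LOXL2 and P4HA3 had no window. A promoter window held the TEAD consensus at 0 of 8 genes, against 2.86% of all, and the core CATTCC at LOXL3 and P4HA2, against 11.7%.

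Other genes of collagen modification, folding and processing were described by the same rule, 24 genes in all. A lost region was found at 7 (P4HB, P3H2, SERPINH1, BMP1, TLL1, PCOLCE and ADAMTS2) and a gained one at 8 (PLOD3, P4HB, PPIB, COLGALT1, COLGALT2, FKBP14, PCOLCE2 and TGM2), with 1 gene in both sets and 10 in neither. Set beside the background of 21.6% and 30.6%, neither count stands far from it. Among the extracellular processing genes, BMP1, TLL1, PCOLCE and ADAMTS2 had lost regions, PCOLCE2 and TGM2 had gained ones, and TLL2, ADAMTS3 and ADAMTS14 had none. BMP1 and TLL1, proteinases that remove the collagen C-propeptide and activate LOX, had 2 and 4 lost regions in their introns, and PCOLCE, which enhances that cleavage, had a lost region over its 5′ end (chr7:100602361-100605192). ADAMTS2, which removes the N-propeptide, had 3 lost regions in introns 2 and 3. TLL1 was the one of these with the TEAD consensus 4 times in 1 region, chr4:165965209-165968811.

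Proteins that act inside the cell were in both lists. SERPINH1, the collagen chaperone HSP47, had 3 lost regions 61.8 to 85.8 kb upstream, with GDPD5 (2 of them) and KLHL35 as the genes with nearer 5′ ends, and P3H2, a prolyl 3-hydroxylase, had 1 at 62.5 kb upstream. COLGALT1, which adds galactose to hydroxylysine, had 3 gained regions, 1 of them in its intron 2 at 4.12 kb from the 5′ end, whereas COLGALT2 had 1 gained region, 13.3 kb upstream over the 5′ end of TSEN15. PLOD3, the third lysyl hydroxylase, had 2 gained and no lost regions. P4HB, the beta subunit that pairs with each P4HA chain, had 1 gained region 9.16 kb upstream, over the 5′ end of ARHGDIA, and 1 lost region 92.9 kb upstream. The enzyme partners PLOD1 and PLOD3 thus had regions of opposite direction in reach, none of them at a start site of either.

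The 11 fibrillar collagen genes, whose products these enzymes modify, had a lost region at 5 (COL1A1, COL1A2, COL5A1, COL5A3 and COL11A2) and a gained one at 3 (COL1A1, COL3A1 and COL5A2), beside 21.6% and 30.6% of all protein-coding genes. COL1A1 had 4 lost regions upstream, at 0.122, 2.12, 7.01 and 8.82 kb from its 5′ end. Of its 2 gained regions, 1 lay in intron 11, 4.12 kb downstream of the 5′ end, and 1 lay 87.0 kb upstream. COL1A2 had 5 lost regions and COL5A1 had 4, none of them with a gained region in reach, whereas COL5A2 had 7 gained regions and COL3A1 had 2. Substrate genes and enzyme genes were alike in that both directions occurred within a family.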

How the data were processed

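H3K27ac ChIP-seq was compared between 4 OGTi and 4 control libraries of LX-2. According to the study's methods, the authors aligned reads to hg38 with Chromap, removed duplicates and blacklisted regions, called peaks in each library against input with MACS2 (2.1.1.20160309 in the submitters' notes), divided peaks into bins and tested all 8 libraries together with MAnorm2. The deposited values are 2 lists of 3 columns, chromosome, start and end, with no count, signal, fold or p-value. Their names give an adjusted p threshold of 0.15, less strict than that of the methods text, and the lists were used as they stand. Depth per sample is unknown from them.

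Starts were converted to count from 1. Genes, transcripts and canonical starts came from GENCODE release 44 on hg38, and sequences from hg38 or from the RefSeq promoter table (1 window per gene, the first listed). Distances run from the nearest base of a region to a 5′ end. Base composition, motif matches on both strands (8 motifs) and counts were computed with Python 3.11.15, pandas 2.3.3, numpy 2.4.6, scipy 1.17.1 and pysam 0.24.0. The region rule, the distances and the motif search were tested on simulated data. No test was made, since no replicate values are in the lists, and counts stand beside the share of all protein-coding genes or regions. The 10 genes, the other gene lists and the motifs were chosen with earlier results of these data known. All 10 genes were to be named, with every gene of the other lists that had a region and the gene nearest to each region. Windows, 5′ ends, the assignment of regions and motif settings were varied, and a planned comparison of protein sequences was not run for want of a protein table here.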

Additional observations from a re-analysis of the deposited data

How the results depend on the processing

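No paired analysis was possible because each listed region was tested over all 8 libraries together, and no value per replicate is given, and for the same reason no replicate could be left out and no stricter threshold applied. Of 59 values recomputed under other settings, 44 stayed within 1.5 times the value given or, for widths and shares, within its error, and 15 moved. For the other windows and assignments below, the share of all protein-coding genes was not computed. Their counts of genes therefore have no background and are not comparable with 21.6% and 30.6%. A wider window can only add genes, whichever they are. With a window of 200 kb, 7 genes had a gained region in place of 4, with PLOD1, P4HA1 and P4HA2 added. Gained regions then numbered 11 in place of 5, while the same 6 genes had a lost one. Of the other collagen modification genes, 12 then had a lost and 13 a gained region, and 5 fibrillar collagen genes had a gained one. With a window of 50 kb, 4 enzyme genes had a lost region in place of 6, without PLOD1 and P4HA3, and lost regions numbered 13 in place of 18. A gained region was then found at 3 enzyme genes in place of 4, without LOXL3. These changes stayed within 1.5 times the value given. In the same window 4 of the other modification genes had a lost region. When each region was given only to its nearest protein-coding 5′ end, 3 enzyme genes had a lost region (LOXL1, LOXL2 and LOXL4), with 9 lost and 3 gained regions, and 3 of the other modification genes had a gained one. By the nearest canonical start, a setting chosen after seeing the data, P4HA2 joined these 3 genes, and lost regions numbered 11 and gained ones 3. With the 5′ ends of all transcripts, 5 enzyme genes had a gained region, P4HA2 being added, 7 regions in place of 4 lay within 2500 bp of a start, those added being 2 of LOXL2 and 1 of P4HA2, and 5 fibrillar collagen genes had a gained region. The share of lost regions with a TEAD match was 22.2% for the full consensus and 77.8% for the core CATTCC. The depth and the signal behind each region limit every count by an amount that the lists do not show, and a gene without a listed region may have had no peak, an unchanged peak or a change below the threshold.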
